A study of Mus musculus with 3 samples.

Results

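Ion channels and transmitter receptors set how a nerve cell fires and what it hears, and 66 of their genes gave signal in sorted cells of the mouse olfactory epithelium. The set was drawn by gene symbol. It held potassium channel genes (Kcn), voltage-gated sodium (Scn) and calcium (Cacna, Cacnb, Cacng) channel genes, the Hcn genes, and receptors for GABA (Gabra, Gabrb, Gabrg), glutamate (Gria, Grik, Grin) and acetylcholine (Chrn). The symbols matched 160 of the 18193 genes on the array, through 340 probe sets, and the probe set brightest on average stood for each gene. A gene was kept if its signal passed a floor of 104.4, the pooled median over all probe sets and arrays, on any array. That left 66 genes (41.25%), against 12331 of all 18193 genes (67.8%). The symbols also matched 3 non-coding RNA genes, 2 of which (Kcnmb4os2 and Kcnq1ot1) are among the 66 and in every count over them. Of the 66, 43 passed the floor on all 3 arrays, 16 on 2 and 7 on 1. A gene that passed only on the array where it was brightest had to differ, so counts over the 66 are descriptions.

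The cells came from Tgn1-2G transgenic mice of both sexes at postnatal days 5 to 8, whose transgene is known to place GFP under Neurog1, a proneural gene, and all 3 fractions share that transgene. Sorting gave 1000000 strongly fluorescent cells (GFP+++), 1300000 weakly fluorescent cells (GFP+) and 6800000 cells without fluorescence (GFP-), and the labels give the number 32, with no word on pooling, for each. By the submitters' account GFP+++ was rich in immature neurons, GFP+ mildly enriched in mature ones, and GFP- a mix of every cell type of the epithelium with fewer immature neurons. Each fraction went on 1 array, so no value below has a replicate error, no difference was tested, and each fold describes these arrays alone. In bulk RNA, fewer cells of a type and less RNA per cell cannot be told apart.

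The gating of the fractions was visible in marker lists. The summed signal of 10 immature olfactory sensory neuron (OSN) markers was 91673 (GFP+++), 60084 (GFP+) and 71396 (GFP-), and that of 10 mature OSN markers 56853, 82646 and 76317. The immature sum was thus higher in GFP- than in GFP+. Non-neuronal lists were lowest in GFP+++. The sums in the order GFP+++, GFP+ and GFP- were 48087, 63177 and 86044 for 8 sustentacular markers. They were 597, 17384 and 20575 for 8 immune markers, and 3856, 10395 and 15795 for 8 endothelial and pericyte markers. Of these lists 0, 5 and 6 members lay under the floor in GFP+++. The respiratory ciliated list, at 7248, 7354 and 6489, was the exception among the 12 lists of other cell types and of dividing cells.

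An OSN turns the binding of an odorant into a graded current through cyclic nucleotide-gated and chloride channels. Voltage-gated sodium channels then fire the axon, potassium channels end each spike and set the resting potential, and calcium channels of the axon ending release glutamate. Pore-forming alpha subunits decide what passes, while beta, alpha 2 delta and other auxiliary subunits tune gating and delivery to the membrane. Inward rectifier and 2-pore potassium channels hold the resting potential of many cells, supporting and glandular cells among them. The ionotropic receptors for GABA, glutamate and acetylcholine are best known from the membranes that neurons and muscle turn towards a synapse.

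Potassium, sodium and calcium channels gave signal and the ionotropic receptors mostly did not. Of the 81 potassium channel and auxiliary genes, 44 passed the floor (54.3%), as did 17 of 35 sodium and calcium channel genes (48.6%). Of 39 receptor genes 2 passed (5.13%), the kainate receptor subunit gene Grik5 and the nicotinic receptor subunit gene Chrnb2. None of 9 GABA-A, 4 AMPA or 6 NMDA receptor subunit genes passed, and their highest signals on any array were 68.4, 81.0 and 86.6. With a floor at the 35th percentile (42.0), 16 of the 39 receptor genes passed (41.0%), against 78.9% of all genes. A signal under the floor does not show that a transcript is absent, since probe sets differ in how well they bind. The kept genes closest to the floor were Kcnj1 (112.9 at most), Kcnab1 (113.8) and Kcnd3 (114.3), and just under it lay Scn7a (92.0), Cacna2d2 (93.9) and Kcnip3 (95.1).

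**Figure D1:**
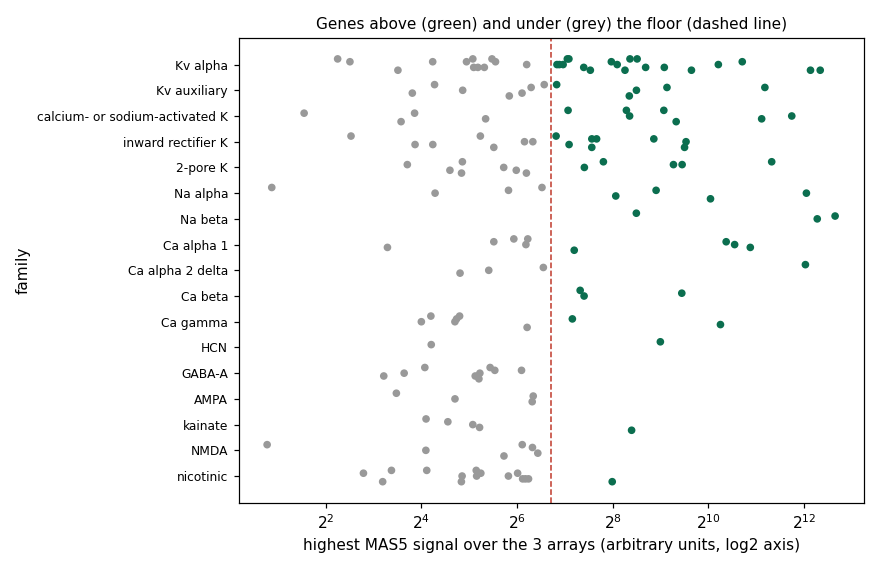
Highest MAS5 signal over the 3 arrays (x axis, arbitrary units on a log2 scale) of each matched channel or receptor gene, by family (y axis), leaving out 3 non-coding RNA genes. Green points passed the floor of 104.4, the dashed line; the GABA-A, AMPA and NMDA rows hold grey points alone, and the kainate and nicotinic rows 1 green point each.

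The weakly fluorescent fraction held the highest signal for more channel genes than either other fraction did. Of the 66 genes, 32 were highest in GFP+ (48.5%), 21 in GFP- (31.8%) and 13 in GFP+++ (19.7%). Over all genes past the floor the shares were 24.8% in GFP+, 36.1% in GFP- and 39.1% in GFP+++. With arrays scaled by their medians 26 of the 66 were highest in GFP+ (39.4%, against 16.35% of all genes) and 25 in GFP+++ (37.9%, against 63.3%), and with quantile normalization 30 and 19 were. Among the 43 genes above the floor on every array, 33 had more signal in GFP+ than in GFP- (76.7%, against 54.0% of 10458 genes), with a median log2 fold of 0.47 (0.03 for all such genes). GFP+++ was below GFP+ for 30 of the 43 (69.8%, against 48.0%), and above GFP- for 22 (51.2%, against 56.9%). The 3 comparisons share arrays, so they are not independent of each other.

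Differences of at least 2-fold were counted next, and 22 of the 66 genes had one in some comparison. GFP+++ against GFP- gave 2 higher and 11 lower genes of 62 compared, where 1.92% of all genes were called higher, 12.4% lower and 14.4% either way. GFP+ against GFP- gave 1 higher and 3 lower of 66, against a background of 0.607% and 0.804%, or 1.41% either way. GFP+++ against GFP+ gave 1 higher and 13 lower of 63, against 0.985% and 9.34%, or 10.3% either way. The split of the first comparison turned with the scaling, since median scaling moved the median log2 fold of all genes from 0.01 to 0.42 and gave 9 higher and 8 lower of the 63 then compared, against 9.27% and 8.58% of all genes. In GFP+++ against GFP+ that scaling moved the median of all genes from -0.02 to 0.25 and gave 4 higher and 8 lower, against 3.47% and 6.40% of all genes. In GFP+ against GFP- it moved it from -0.01 to 0.13 and gave 5 higher and 2 lower, against 1.09% and 0.384%. The median log2 fold of the channel genes minus that of all genes was -0.13, 0.32 and -0.28 in the 3 comparisons with the main scaling and -0.15, 0.20 and -0.38 with median scaling. With quantile normalization it was 0.04, 0.32 and -0.22, so the first of these medians turned. It was 0.13 with a floor at the 65th percentile. The second fell to 0.05 with a floor at the 35th percentile and turned to -0.09 with no floor and a pseudocount of 16, over all 160 genes.

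**Figure D2:**
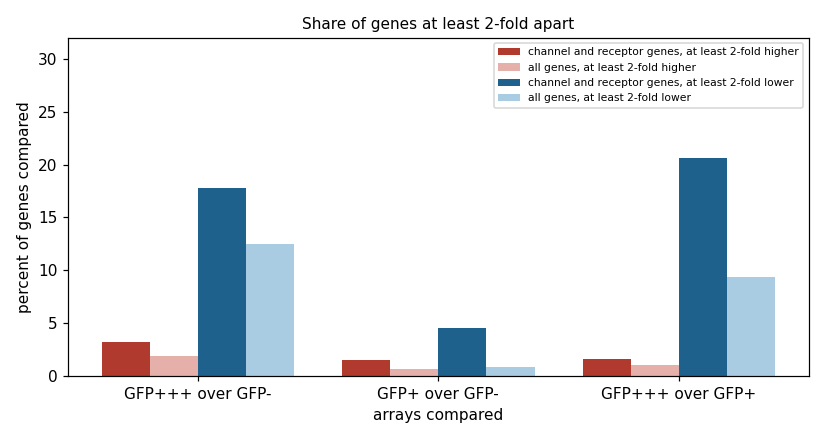
Percent of the genes compared (y axis) that were at least 2-fold higher (red) or lower (blue) in the first of the 2 arrays named on the x axis, for channel and receptor genes (dark) and all genes (pale). In GFP+++ over GFP+ the lower share was 20.6% of channel and receptor genes and 9.34% of all genes.

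Genes with several probe sets show how far folds of the same gene differ between probe sets. Where both arrays passed the floor, the pooled SD of the log2 folds among a gene's probe sets was 0.38 for 22 channel genes in GFP+++ against GFP-, 0.33 for 24 in GFP+ against GFP- and 0.44 for 22 in GFP+++ against GFP+. Over all genes it was 0.30, 0.24 and 0.30. This spread mixes differences between the probe sets with the error of the array. It holds nothing of the variation between animals, sorts or labelling reactions. Of the 66 genes 36 had 1 probe set past the floor and no such check.

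Start sites show what kind of control region some of these genes carry. RefSeq promoters (mouse build GRCm38.p6) were matched for 51 of the 66 genes, with 70 start sites, and the 250 bases before each start were read. The genes shown were chosen after their values were seen. Kcnip2 and Kcnmb4 were brightest in GFP+++, Kcnc4 and Scn4b in GFP+, and Kcnj13 in GFP-. Capitals mark the GC box GGGCGG and the TATA box TATAAA on either strand.
Kcnip2, chr19:45816064-45816313, minus strand: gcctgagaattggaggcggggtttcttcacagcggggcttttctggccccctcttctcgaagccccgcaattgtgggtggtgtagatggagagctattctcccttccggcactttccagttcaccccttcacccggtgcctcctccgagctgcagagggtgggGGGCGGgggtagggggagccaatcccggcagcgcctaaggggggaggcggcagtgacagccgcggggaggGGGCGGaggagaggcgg
Kcnmb4, chr10:116473524-116473773, minus strand: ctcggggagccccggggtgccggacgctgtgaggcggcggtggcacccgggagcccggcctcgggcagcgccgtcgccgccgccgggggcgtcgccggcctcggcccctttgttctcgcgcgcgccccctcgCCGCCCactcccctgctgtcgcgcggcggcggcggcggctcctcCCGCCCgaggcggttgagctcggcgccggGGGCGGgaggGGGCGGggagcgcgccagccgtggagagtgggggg
Kcnc4, chr3:107458899-107459148, minus strand: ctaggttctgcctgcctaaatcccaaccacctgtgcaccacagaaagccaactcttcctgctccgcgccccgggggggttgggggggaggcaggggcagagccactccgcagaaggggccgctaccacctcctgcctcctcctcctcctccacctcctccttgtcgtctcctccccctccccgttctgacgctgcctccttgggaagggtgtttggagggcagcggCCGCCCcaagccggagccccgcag
Scn4b, chr9:45138374-45138623, plus strand: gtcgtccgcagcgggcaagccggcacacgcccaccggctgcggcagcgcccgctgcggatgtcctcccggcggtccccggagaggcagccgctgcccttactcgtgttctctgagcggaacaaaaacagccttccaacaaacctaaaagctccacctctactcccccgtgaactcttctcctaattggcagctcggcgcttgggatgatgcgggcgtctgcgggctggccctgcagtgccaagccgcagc
Kcnj13, chr1:87394730-87394979, minus strand: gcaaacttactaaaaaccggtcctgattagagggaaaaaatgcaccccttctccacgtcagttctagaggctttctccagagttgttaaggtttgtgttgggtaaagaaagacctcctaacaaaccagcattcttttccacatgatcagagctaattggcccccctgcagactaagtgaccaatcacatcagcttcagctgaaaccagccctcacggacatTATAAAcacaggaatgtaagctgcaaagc
The GC content of these windows was 66.8% for Kcnip2, 83.6% for Kcnmb4, 68.0% for Kcnc4, 66.0% for Scn4b and 45.2% for Kcnj13. Kcnmb4 held 4 GC boxes, Kcnip2 held 2, Kcnc4 held 1 and the other two held 0. The TATA box of Kcnj13 began 29 bases before the start, and Kcnj13 was 1 of 3 matched genes with a TATA box, beside Cacna1d and Scn2a. Over the 51 genes the GC box was present in 56.9% and the TATA box in 5.88%, against 64.2% and 8.18% of 9967 genes past the floor. The E-box CAGATG, which proneural factors can bind, was in 11.8% of the 51 and 12.0% of those 9967. The palindromic Ebf motif, TAATTA (homeodomain factors) and TGACGTCA (the cAMP response element) were in 0 of 51 genes, against 1.19%, 3.07% and 3.03% of the 9967. Each motif was searched on both strands, and a match is a description of letters, not of binding.

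The potassium channel genes divided over the 3 fractions, with 20 of 44 highest in GFP+ (45.45%), 19 in GFP- (43.2%) and 5 in GFP+++ (11.4%). Over all genes past the floor the shares in this order were 24.8%, 36.1% and 39.1%. Median scaling gave 18, 15 and 11 of the 44, against 16.35%, 20.3% and 63.3% of all genes. Quantile normalization gave 18, 16 and 10, against 23.6%, 33.0% and 43.4%. The 20 highest in GFP+ were 10 voltage-gated alpha subunit genes, 5 calcium- or sodium-activated channel genes, 2 auxiliary, 2 2-pore and 1 inward rectifier gene. Kcnc4, a fast-gating channel of the Shaw group that helps end spikes, gave 1717 (GFP+++), 4517 (GFP+) and 2301 (GFP-). It was 2.63-fold lower in GFP+++ than in GFP+, and its second probe set was on that side too (log2 -1.19 beside -1.40). Further triplets of signals keep the order GFP+++, GFP+, GFP-. Kcns3 and Kcng1 encode silent alpha subunits, which form no channel alone and modify Kcnb channels. Kcns3 had 131, 414 and 229, a 3.17-fold lower signal in GFP+++ than in GFP+, and a second probe set gave log2 -1.62. Kcng1 had 77.1, 307 and 177, which made GFP+++ at least 2.94-fold lower than GFP+.

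The same order, with GFP+++ lowest and GFP+ highest, held on the brightest probe set for 4 more potassium channel genes past 2-fold. Kcnq1, whose channel carries slow delayed currents in heart and secretory epithelia, had 198, 542 and 368 and was 2.74-fold lower in GFP+++ than in GFP+. Kcna6, a Shaker channel gene, had 161, 366 and 216 (2.27-fold lower). Kcnip4, a calcium sensor that binds Kcnd channels, had 197, 564 and 386 (2.86-fold lower). Another probe set of Kcnip4 gave 133, 239 and 125, with GFP- lowest. Kcnma1 encodes the large-conductance channel opened by calcium and voltage together. Its signals were 186, 538 and 376, with GFP+++ 2.89-fold below GFP+ and 2.02-fold below GFP-. The other 3 probe sets of Kcnma1 also had GFP+++ lowest, while 2 of them placed GFP- above GFP+. With median scaling or quantile normalization Kcna6 lay within 2-fold in GFP+++ against GFP+. A floor at the 65th percentile lost the call against GFP+ for Kcns3, Kcng1, Kcnq1, Kcna6 and Kcnma1. The median over probe sets lost it for Kcng1 and Kcna6. Median scaling made another probe set of Kcnma1 the brightest on average, with log2 -0.79 against GFP+; the first probe set kept -1.25 there, a value computed after the data were seen. Against GFP-, Kcnma1 lay within 2-fold with either scaling (log2 -0.46 and -0.77), with a floor at the 65th percentile and with no floor.

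**Figure D3:**
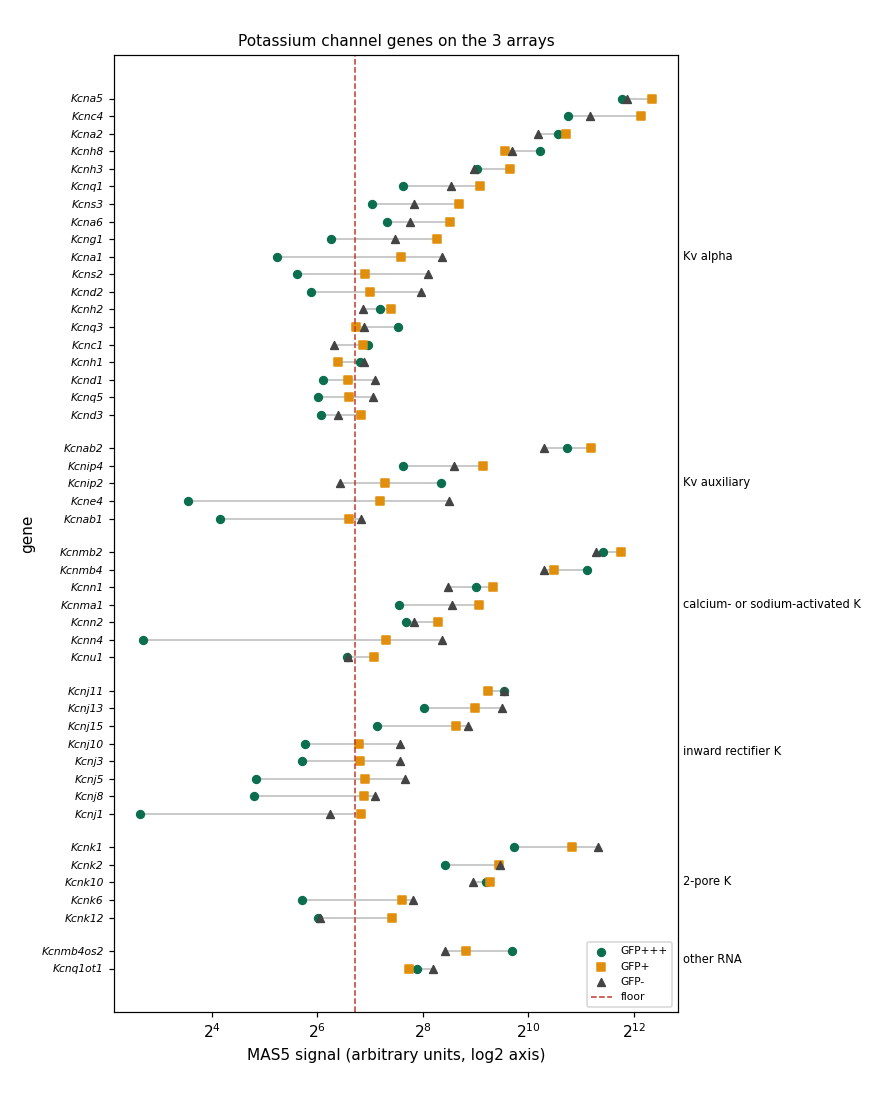
MAS5 signals (x axis, arbitrary units on a log2 scale) of 44 potassium channel and auxiliary genes and 2 non-coding RNAs (y axis, by family, in order of mean signal) in GFP+++ (circles), GFP+ (squares) and GFP- (triangles); the dashed line is the floor. Kcnc4, Kcns3 and Kcnma1 show the square to the right and the circle to the left, Kcnip2 and Kcnmb4 the circle to the right, and the inward rectifiers mostly the triangle.

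Other potassium channel and subunit genes were brightest in GFP+ without passing 2-fold. Kcna5, a delayed rectifier gene of the Shaker group, had 3522, 5201 and 3762, a log2 fold of 0.47 for GFP+ against GFP-. Kcnab2, a cytoplasmic beta subunit of Kcna channels, had 1694, 2331 and 1264 and a log2 fold of 0.88 for GFP+ against GFP-, with its second probe set at 0.75. Kcnmb2, a beta subunit that inactivates the large-conductance channel, had 2726, 3442 and 2489. Kcnn1, a small-conductance calcium-activated channel gene, had 513, 644 and 355, but its other probe set placed GFP+++ highest. Over all genes past the floor, 24.8% were highest in GFP+, 36.1% in GFP- and 39.1% in GFP+++. Of the 19 alpha subunit genes past the floor, 10 were highest in GFP+ (52.6%), 6 in GFP- (31.6%) and 3 in GFP+++ (15.8%). Their median log2 fold was 0.15 in GFP+ against GFP-, -0.30 in GFP+++ against GFP+ and -0.36 in GFP+++ against GFP-, the last -0.01 with median scaling. With a floor at the 35th percentile they were 0.47, -0.63 and -0.42, and with one at the 65th percentile 0.50, -0.56 and -0.09.

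A smaller group was brightest in GFP+++ with the main scaling. Kcnip2, a calcium sensor that brings Kcnd channels to the membrane and shapes the rapidly inactivating A-type current, had 326, 156 and 86.7. Its GFP+++ signal exceeded that of GFP- at least 3.13-fold and that of GFP+ 2.09-fold, on 1 of its 3 probe sets, the others lying under the floor. With the median over its probe sets, Kcnip2 did not pass the floor, and with a floor at the 65th percentile its call was lost in both comparisons. The Kcnd genes whose products it binds had low signals. Kcnd2 had 59.0, 128 and 252, Kcnd1 had 68.5, 95.3 and 136, and Kcnd3 had 67.0, 114 and 84.2, each under the floor in GFP+++.

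Kcnmb4 encodes a beta subunit that makes the large-conductance channel slow and resistant to some toxins. Its signals were 2225, 1440 and 1257, a log2 fold of 0.82 for GFP+++ against GFP- and of 1.24 with median scaling. Kcnmb4os2 is a non-coding RNA made from the opposite strand of the same locus, with a start 360 bases from that of Kcnmb4 on chromosome 10 of GRCm38.p6. It had 829, 450 and 344, a 2.41-fold excess of GFP+++ over GFP- (log2 1.27). Both were in the same order over the 3 arrays. Kcnmb4os1, another non-coding RNA named for Kcnmb4, lay under the floor on each array. The pore gene Kcnma1, with which Kcnmb4 assembles, was lowest in GFP+++, as was shown above.

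Kcnh8, a channel gene of the Elk group, had 1187, 754 and 827, a log2 fold of 0.65 over GFP+. Kcnq3, a subunit of the muscarine-sensitive M current, had 186, 107 and 118, with a log2 fold of 0.79 over GFP+. Both stayed within 2-fold, and Kcnq3 passed it with median scaling. Kcnq1ot1, a long non-coding RNA of the imprinted Kcnq1 region, gave no single direction. Its brightest probe set had 237, 212 and 293, whereas another had 306, 103 and 68.8.

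Genes of the inward rectifiers and part of the 2-pore channels were brightest in GFP-. Of 8 inward rectifier genes 7 were highest there with the main scaling (87.5%, against 36.1% of all genes past the floor). The median log2 fold of the inward rectifier genes in GFP+++ against GFP- was -0.86 over 7 compared, with 4 bounds. It was -1.72 with a floor at the 35th percentile (42.0), -1.61 with no floor, and -0.39 with the median over probe sets. Kcnj15 had 140, 395 and 466, which put GFP+++ 3.32-fold below GFP- and 2.82-fold below GFP+. This rests on 1 of its 3 probe sets. Both calls were lost with a floor at the 65th percentile and with the median over probe sets. Kcnj13, a channel gene of transporting epithelia, had 261, 511 and 727 (2.79-fold lower in GFP+++ than in GFP-). Kcnj10, known from potassium-buffering glia, had 54.1, 110 and 190, and Kcnj8, a subunit gene of the ATP-sensitive channel known from pericytes and smooth muscle, had 27.9, 119 and 136. Kcnj11, the pore gene of the neuronal and endocrine ATP-sensitive channel, did not follow this order, with 741, 602 and 743. It is counted among the 7, though GFP+++ and GFP- were nearly equal.

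Kcnk1, a 2-pore channel gene, had 843, 1824 and 2573 and was 3.05-fold lower in GFP+++ than in GFP- and 2.16-fold lower than in GFP+. A second probe set gave the same order (158, 379 and 507). Kcnk2, whose channel responds to stretch and lipids, had 342, 700 and 702 (2.05-fold lower in GFP+++ than in GFP-), and Kcnk6 had 52.6, 196 and 224 (at least 2.15-fold lower). Kcnk10, a close relative of Kcnk2, had 584, 619 and 494 and differed little. In median scaling Kcnk2 and Kcnk6 lay within 2-fold of GFP-, and Kcnk1 and Kcnk2 within 2-fold of GFP+.

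Among the remaining genes highest in GFP-, 5 had GFP+++ signals under the floor and passed 2-fold against GFP- as bounds. Kcne4, a small membrane subunit that restrains Kcnq1 and other channels, had 11.8, 146 and 362 (at least 3.47-fold lower). Kcnn4, the intermediate-conductance channel gene of blood and secretory cells, had 6.50, 159 and 328 (at least 3.14-fold lower). Kcna1 had 37.5, 193 and 330 (at least 3.16-fold lower), with a second probe set in the same order. Kcns2, another silent subunit gene, had 48.9, 119 and 274 (at least 2.62-fold lower), and Kcnd2 was at least 2.41-fold lower. With a floor at the 65th percentile none of these 5 was called in GFP+++ against GFP-. With the median over probe sets Kcna1, Kcns2 and Kcnd2 were not. Kcne4, Kcns2 and Kcnn4 were also the 3 genes at least 2-fold under GFP- in GFP+, by 2.48-fold, 2.30-fold and 2.06-fold. Kcnn4 lay within 2-fold there with median scaling and with no floor, and with the median over probe sets neither Kcnn4 nor Kcns2 was called. With the 65th percentile floor none of the 3 was. The marker sums of sustentacular, immune and vascular cells given above move in the same order over the arrays as these genes do, and their part in the result was not tested.

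On their brightest probe sets, all 7 sodium channel genes past the floor had more signal in GFP+ than in GFP-, under the main, median and quantile scalings alike. Over all genes compared, 5954 of 12196 did with the main scaling. A second probe set of Scn2b had 125 in GFP+ and 126 in GFP-. In GFP+++ against GFP- 4 of the 7 sodium channel genes had more signal in GFP+++, beside 6203 of 12235 genes. With median scaling or quantile normalization 6 of 7 did. Median scaling put the median log2 fold of all genes there at 0.42, so most genes lay above 0 with it. Scn9a, whose channel is the main sodium channel known from OSN axons, had 4072, 4256 and 2511, log2 folds over GFP- of 0.70 and 0.76. Its 5 probe sets ranged from -0.37 to 0.80 in GFP+++ against GFP- and from -0.26 to 0.92 in GFP+ against GFP-, so they did not all share a direction. Scn3a, a channel gene of developing neurons, had 1059, 846 and 659 and was highest in GFP+++ (log2 0.69 over GFP-). Scn8a, the channel gene of mature axon initial segments and nodes, had 221, 481 and 233. Its GFP+ signal exceeded that of GFP- 2.07-fold and that of GFP+++ 2.18-fold, but its second probe set gave 163, 214 and 173, log2 0.31 and -0.40 for GFP+ against GFP- and GFP+++ against GFP+. With median scaling or quantile normalization Scn8a lay within 2-fold in the latter. A floor at the 65th percentile and the median over probe sets lost its call in both comparisons. With no floor the call in GFP+ against GFP- was lost. Scn2a had 205, 268 and 219. In the RefSeq table Scn3a lies beside Scn2a, and Scn9a lies between Scn1a and Scn7a, both of which stayed under the floor.

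The beta subunits differed from each other. Scn4b, which supports resurgent currents and rapid firing, had 1795, 4982 and 3079, with GFP+++ 2.77-fold below GFP+. Scn2b, its neighbour in the RefSeq table, had 361, 245 and 233 and was highest in GFP+++, with log2 folds of 0.56 over GFP+ on both probe sets. Scn3b had 5570, 6453 and 4164, log2 0.42 and 0.63 over GFP-. A second probe set of Scn3b, at 363, 748 and 351, put GFP+++ further below GFP+ (log2 -1.04) than the first (-0.21).

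Calcium channel pore genes gave nearly equal signals in both fluorescent fractions with the main scaling. The median log2 fold of the 4 past the floor was then 0.07 for GFP+++ against GFP+ and 0.49 against GFP-. With median scaling these were 0.34 and 0.91, where the medians of all genes were 0.25 and 0.42. Cacna1d, an L-type gene, had 1887, 1725 and 1147. Cacna1h, a T-type gene, had 1504, 1388 and 1110, and Cacna1b, the N-type gene of many transmitter-releasing endings, had 1297, 1330 and 887. Their log2 folds over GFP- lay between 0.32 and 0.72, and between GFP+++ and GFP+ they differed by at most 0.13. A probe set of Cacna1b with lower signal gave 151, 282 and 257, the opposite direction in GFP+++ against GFP-. It had log2 -0.90 in GFP+++ against GFP+. Cacna1e was close to the floor, with 123, 122 and 147.

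Among the auxiliary calcium channel genes, Cacna2d1, which carries channels to the surface, had 3999, 4196 and 3047, log2 0.39 and 0.46 over GFP-. Cacnb2, a cytoplasmic beta subunit gene, had 491, 699 and 371, a log2 fold of 0.91 for GFP+ against GFP-, and its second probe set gave 1.36. Cacnb1 and Cacnb4 lay near the floor and parted, Cacnb1 being highest in GFP+++ (160, 108 and 86.0) and Cacnb4 in GFP+ (106, 169 and 132). Cacng4, of the gamma family whose members also act as AMPA receptor partners, had 1224, 638 and 795, a log2 fold of 0.94 for GFP+++ against GFP+, with 0.55 on its second probe set. Of the 17 sodium and calcium channel genes, 15 lay above 0 in GFP+ against GFP- with a median of 0.37, and 11 in GFP+++ against GFP- with a median of 0.42. Over all genes compared these medians were -0.01 and 0.01.

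**Figure D4:**
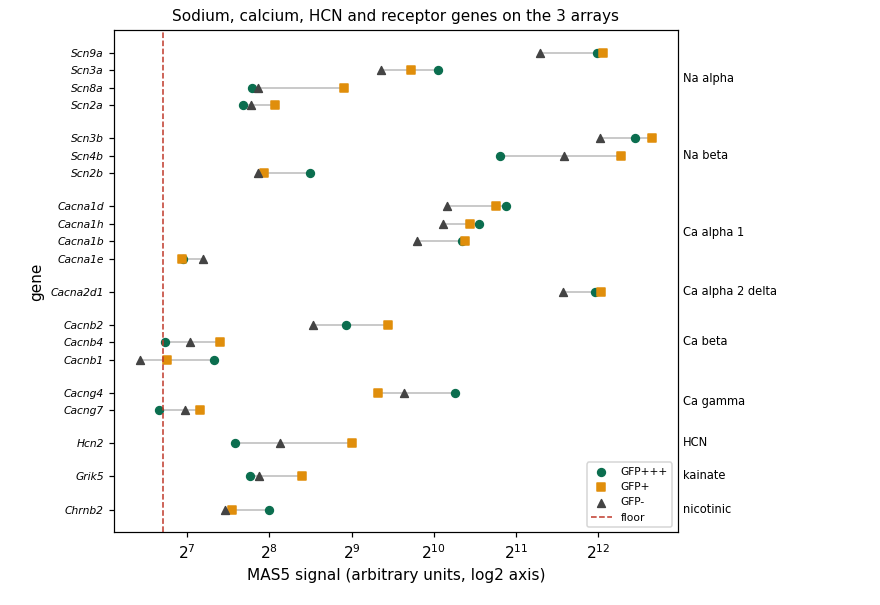
MAS5 signals (x axis, arbitrary units on a log2 scale) of sodium, calcium, HCN and receptor genes past the floor (y axis, by family, in order of mean signal) in GFP+++ (circles), GFP+ (squares) and GFP- (triangles); the dashed line is the floor. The circle and square of Scn9a, Cacna1b and Cacna2d1 nearly coincide to the right of the triangle, and Scn4b, Scn8a and Hcn2 have the square alone at the right.

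Hcn2, the gene of a channel that opens on hyperpolarization and binds cyclic nucleotides, had 191, 512 and 279. GFP+++ was 2.68-fold below GFP+, a call lost with a floor at the 65th percentile, and GFP+ was above GFP- at log2 0.88. The receptor genes that passed differed by less. Grik5 had 216, 337 and 235, log2 0.52 for GFP+ against GFP-, and Chrnb2 had 255, 187 and 176, log2 0.54 for GFP+++ against GFP-.

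Probe sets of a gene shared a direction where the gene was called on its brightest one, and not always elsewhere. In GFP+++ against GFP-, 4 of the called genes had another probe set past the floor, and it went the same way for all 4, as it did for 2 of 2 in GFP+ against GFP- and 6 of 6 in GFP+++ against GFP+.  Where at least 2 probe sets of a gene passed on both arrays, 6 of 22, 5 of 24 and 5 of 22 had probe sets on both sides of 0 in the 3 comparisons. For 4, 1 and 3 of these genes both sides reached a log2 fold of at least 0.3. In GFP+++ against GFP- the 6 were Cacna1b, Kcna2, Kcnh3, Kcnip4, Kcnq1ot1 and Scn9a. In GFP+ against GFP- the 5 were Cacng4, Kcnma1, Kcnn1, Scn2b and Scn9a. None of these 5 in GFP+++ against GFP+ (Cacna2d1, Kcnh3, Kcnn1, Kcnq1ot1 and Scn9a) passed 2-fold on its brightest probe set. Kcnma1 was on both sides of 0 in GFP+ against GFP- (log2 0.52, 0.19, -0.07 and -0.52).

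**Figure D5:**
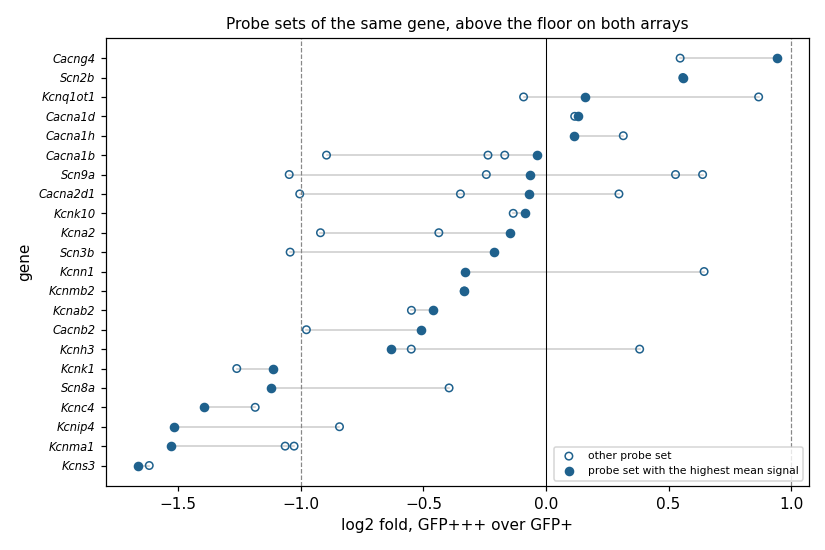
Log2 fold of GFP+++ over GFP+ (x axis) for each probe set of 22 channel genes (y axis) with at least 2 probe sets past the floor in both fractions; filled points are the brightest probe set by mean, open points the others, and dashed lines mark 2-fold. Kcns3, Kcnc4, Kcnk1, Kcnip4 and Kcnma1 lie left of 0 with all points, whereas those of Scn9a, Kcnn1 and Kcnh3 lie on both sides.

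Genes that work with these channels but fall outside the symbol rule were grouped in 5 lists. Their counts are to be read against all genes, of which 1.92% were called higher and 12.4% lower in GFP+++ against GFP-, and 0.985% and 9.34% in GFP+++ against GFP+. Of 10 olfactory transduction and chloride transport genes compared between GFP+++ and GFP+, 0 passed 2-fold on the higher side and 5 on the lower. Among the lower ones were Cnga4, a subunit gene of the odorant-gated channel (1749, 3951 and 2232), Adcy3, its cyclase (3653, 7578 and 5522), Slc8a1, a sodium-calcium exchanger gene (411, 1177 and 729) and Slc24a4, another exchanger gene (262, 602 and 363). The pore gene Cnga2 had 6845, 7862 and 6617, and the chloride loader Slc12a2 12300, 10564 and 11851. Cnga2, Cnga4, Cngb1, Adcy3 and Gnal were also among the mature OSN markers summed above, so they give no separate result. The remaining gene lower in GFP+++ than in GFP+ was Slc4a1, which was also on the erythroid marker list (log2 -1.86, a bound). Against GFP-, 0 of 11 were higher in GFP+++ and 1 was lower, again Slc4a1 (log2 -1.88, a bound).

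Of 17 channel partners and anchors compared, 2 were higher and 1 lower in GFP+++ than in GFP-. Rem2, a small GTPase that restrains calcium channels, had 655, 342 and 288 (2.27-fold higher). Stac, an adaptor of calcium channels, had 276, 127 and 128 (2.16-fold higher), and Lgi2, a secreted synaptic protein gene, had 27.5, 243 and 368 (at least 3.52-fold lower). Against GFP+, Stac was higher while Pex5l, a partner of HCN channels, was lower (774, 1683 and 1137), as was Lgi2. Of 27 receptor scaffolds and auxiliary subunits, only Cnih2, an AMPA receptor escort, was at least 2-fold apart in GFP+++ against GFP- (1266, 861 and 593). Against GFP+, Dlg2 (217, 449 and 321) and Lynx1 (208, 462 and 400) were lower in GFP+++.

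Of other transmitter receptors, 9 of 31 passed the floor. The metabotropic GABA-B receptor gene Gabbr1 had 2388, 3330 and 2181, a log2 fold of 0.61 for GFP+ against GFP-. Gabrp, a GABA-A subunit gene known from epithelia, was 4.46-fold lower in GFP+++ than in GFP- (163, 462 and 725), the only gene of that list past 2-fold there. Of 24 other channels compared, 0 were higher and 5 lower in GFP+++ than in GFP- (20.8%, against 12.4% of all genes). Among the lower were the chloride channel gene Ano1 of glands and muscle (at least 15.8-fold), Scnn1a of the epithelial sodium channel (3.27-fold), Piezo1 (2.71-fold) and Tpcn1 (2.64-fold). In GFP+ against GFP-, 0 genes of the 5 lists were at least 2-fold apart in either direction, where 1.41% of all genes were. The lists had 11 transduction, 17 partner, 27 scaffold, 8 receptor and 23 other channel genes compared there, so 0 is near that share.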

How the data were processed

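Signals of 3 sorted fractions, 1 array each, were used. The authors deposited 1 linear intensity for each probe set, and the submitters' processing notes name MAS5. Its version and settings were not stated in the labels. The 2% trimmed mean was 500.0 on each array, so each carries 1 scaling factor, and arrays were brought to a common trimmed mean. Probe sets were named from GEO's platform annotation. Of 45101, 34945 had 1 symbol and were not controls, 932 had several and 9211 none. All 160 matched genes were found in the RefSeq table by Entrez identifier, with 0 changed symbols.

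Signals under the floor, the 50th percentile of all signals, were raised to it before log2 folds were taken. A gene was called at a fold of 2 or more. A gene below it in both fractions was not compared, and with 1 array under it the fold is a bound, written as "at least". With 1 array per group there is no test, and precision is limited by that number. The members and lists were chosen with earlier results of these data known. Named were all members past 2-fold in a comparison (22 in all), the brightest of each family, those whose probe sets part, and up to 4 genes past 2-fold per list of partners and direction. Other names, such as relatives and subunit partners, were added once values were known. Simulated arrays were used to check the steps. Python 3.11.15, pandas 2.3.3, numpy 2.4.6 and scipy 1.17.1 were used.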

Additional observations from a re-analysis of the deposited data

How the results depend on the processing

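No replicate could be left out and no paired analysis was possible because each group had 1 array. Of the genes at least 2-fold apart in GFP+++ against GFP- (13), GFP+ against GFP- (4) and GFP+++ against GFP+ (14), those still called numbered 10, 3 and 9 after median scaling, 10, 4 and 11 after quantile normalization, 4, 0 and 5 with a floor at the 65th percentile, 12, 2 and 13 with no floor and a pseudocount of 16, 8, 1 and 9 with the median over probe sets, and all with a floor at the 35th percentile or with the _x_at and _s_at probe sets left out. In none of these did a called gene change direction. Low signal limited part of the folds: 18 of 62, 11 of 66 and 17 of 63 folds were bounds.

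The count of genes past the floor was 102 with the 35th and 42 with the 65th percentile. Higher genes in GFP+++ against GFP- numbered 9 with median scaling, 1 with the 65th percentile, 1 with the median over probe sets, 10 at a fold of 1.5 and 1 at a fold of 3. Lower genes there numbered 19 with the 35th and 3 with the 65th percentile, 27 with no floor, 7 with the median over probe sets, 19 at 1.5-fold and 5 at 3-fold. Higher genes in GFP+ against GFP- numbered 5 with median scaling, 2 with quantile normalization, 2 with the 35th and 0 with the 65th percentile, 2 with no floor, 15 at 1.5-fold and 0 at 3-fold. Lower genes there numbered 0 with the 65th percentile, 7 with no floor, 1 with the median over probe sets, 8 at 1.5-fold and 0 at 3-fold. Higher genes in GFP+++ against GFP+ numbered 4 with median scaling, 2 with quantile normalization, 0 with the 65th percentile, 3 with no floor, 0 with the median over probe sets, 6 at 1.5-fold and 0 at 3-fold. Lower genes there numbered 8 with median scaling, 26 with the 35th and 5 with the 65th percentile, 31 with no floor, 22 at 1.5-fold and 1 at 3-fold. Over all genes, the shares higher and lower in GFP+++ against GFP- were 2.12% and 16.4% with the 35th percentile, 1.55% and 7.61% with the 65th, 1.95% and 15.3% with no floor, 1.93% and 10.05% with the median over probe sets, 9.31% and 20.5% at 1.5-fold and 0.196% and 6.105% at 3-fold. In GFP+ against GFP- they were 0.831% and 1.55%, 0.412% and 0.391%, 0.907% and 1.84%, 0.591% and 0.840%, 4.67% and 7.13%, and 0.0902% and 0.0820% in the same order of settings. In GFP+++ against GFP+ they were 1.22% and 13.0%, 0.742% and 5.496%, 1.385% and 11.65%, 1.08% and 7.29%, 6.39% and 18.2%, and 0.0589% and 3.44%. With quantile normalization the 3 comparisons gave 3.01% and 10.7%, 0.717% and 0.817%, and 1.495% and 7.47%. The settings with another floor also compared other numbers of genes, and the cause of the remaining shifts was not tested.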
